A study of Homo sapiens with 2 samples.

Results

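The miR-23/27/24 clusters are 2 related groups of miRNA genes, each a single transcript from which 3 hairpins are cut. The cluster on chromosome 19 holds hsa-mir-23a, hsa-mir-27a and hsa-mir-24-2, and the cluster on chromosome 9 holds hsa-mir-23b, hsa-mir-27b and hsa-mir-24-1, written below without the species prefix. These 6 precursors were taken by name from the 1038 precursors with any count, and by the same names 7 of 502547 read stacks were taken from a genome-wide list. Small RNA held by Argonaute was sequenced from HEK293 T-Rex cells, a human embryonic kidney line with a tetracycline repressor, that expressed FLAG-tagged AGO2 or FLAG-tagged AGO3. With 1 library per protein, the differences have no replicate check and no test was made. The groups share the cell line and the tag, while the protein and the 3′ adapter change together and cannot be told apart. The labels give neither whether expression was induced nor how many clones were used.

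Argonaute proteins carry miRNAs to target RNAs, which are recognised mainly by bases 2 to 8 of the miRNA, the seed. The hairpins of a cluster are cut from a common primary transcript by Drosha and then by Dicer, and 1 arm of each hairpin is usually kept in Argonaute. miR-23 is known as a repressor of glutaminase, miR-27 as a repressor of the adipogenic factor PPARG, and miR-24 as a repressor of cell cycle genes in differentiating cells. The clusters are also known from endothelial cells, muscle and blood cells, and they arose by duplication, so that each hairpin has a counterpart in the other cluster.

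The mature 3p arms, which show how alike the counterparts are, are shown 5′ to 3′ with the seed in capitals. The sequences are those of RefSeq for build GRCh38.p14, which matched 6 of 6 members.
miR-23a-3p: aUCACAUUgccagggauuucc
miR-23b-3p: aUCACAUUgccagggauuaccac
miR-27a-3p: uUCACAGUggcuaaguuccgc
miR-27b-3p: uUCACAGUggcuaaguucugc
miR-24-3p: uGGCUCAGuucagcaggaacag

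Each family has 1 seed in both clusters, UCACAUU for miR-23, UCACAGU for miR-27 and GGCUCAG for miR-24. The first 18 bases of miR-23a-3p and miR-23b-3p are the same. Counted from 1 at the 5′ end of the chromosome 19 form, the miR-23 counterparts differ by U19A, and miR-23b-3p is 2 bases longer. The miR-27 counterparts also share their first 18 bases and differ by C19U alone. The miR-24-3p of both hairpins is the same in all 22 bases, so its reads cannot be assigned to a cluster. The 5p arms differ more, at 7 positions for miR-23, 8 for miR-27 and 6 for miR-24. Among the mature arms of miR-24 only the 5p arms, which share their first 15 bases, tell the hairpins apart.
miR-24-2-5p: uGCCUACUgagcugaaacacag
miR-24-1-5p: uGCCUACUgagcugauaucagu

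The mir-24 hairpins are shown whole, with the longest run of bases common to both in capitals. This run is 27 bases long and contains miR-24-3p.
mir-24-2 hairpin: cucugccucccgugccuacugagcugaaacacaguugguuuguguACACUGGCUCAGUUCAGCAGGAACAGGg
mir-24-1 hairpin: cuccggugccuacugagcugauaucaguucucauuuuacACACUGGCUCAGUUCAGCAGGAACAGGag
The longest common run was 20 bases in the miR-23 hairpins and 20 bases in the miR-27 hairpins.

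The AGO2 library had 3485257 counts on precursors and the AGO3 library 3055417, out of 6674064 and 4667236 reads. Each count is given per hairpin without naming the arm. Intervals are exact (Clopper-Pearson) 95% intervals that cover counting error only, since 1 library per protein leaves no replicate spread. The reads carry no molecular identifier that would mark copies of 1 molecule. Such copies count as separate reads, so the intervals can be too narrow. A count of 0 would allow a share of up to 8.61e-05% in AGO2 and 9.82e-05% in AGO3. As a check of the cell type, the liver miRNA mir-122 had 1 count in AGO2 and 2 in AGO3, but the erythroid miRNAs were not all near 0: mir-451a had 3 and 1, mir-144 had 103 and 32, and mir-486 had 672 and 5745.

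Both clusters together made up 6.83% (6.80 to 6.85) of the AGO2 library's counts and 6.12% (6.09 to 6.14) in AGO3, and the miR-27 precursors made up most of them. mir-27b had 159845 counts in AGO2 and 113330 in AGO3, which placed it at rank 2 of all precursors in AGO2 and rank 4 in AGO3. mir-27a, its counterpart on chromosome 19, had 51816 and 53181 counts, at ranks 15 and 12. The miR-27 family thus took 6.07% of the counts in AGO2 and 5.45% in AGO3.

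The miR-23 precursors stood far lower. mir-23b was counted 13856 times in AGO2 and 9116 times in AGO3, and mir-23a 7882 and 4580 times. mir-24-1 had 3496 and 5302 counts, and mir-24-2 was lowest in both libraries with 1081 and 1401. These are counts as assigned to each hairpin. Whether they include the mature arm common to both mir-24 hairpins was not tested. The order was mir-27b, mir-27a, mir-23b, mir-23a, mir-24-1 and mir-24-2 in AGO2. In AGO3 it was the same except that mir-24-1, at 0.174% (0.169 to 0.178) of the counts, stood above mir-23a, at 0.150% (0.146 to 0.154). The counting intervals of neighbours in either order do not overlap, but their spread between libraries of 1 protein is unknown.

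**Figure D1:**
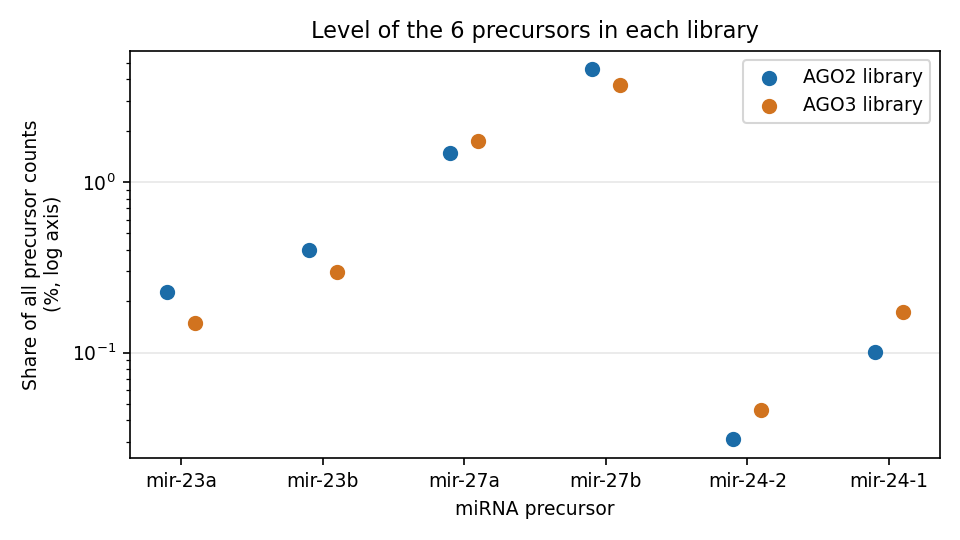
Share of all precursor counts, in percent on a log axis, of the 6 precursors in the AGO2 and the AGO3 library, 1 point per library. The miR-27 precursors stand highest in both libraries, at 4.59% and 3.71% for mir-27b, and mir-24-2 stands lowest, at 0.0310% and 0.0459%. Whether the mir-24 counts include the mature arm that both mir-24 hairpins share was not tested.

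The first comparison asked whether AGO3 and AGO2 held these miRNAs at different levels. Scaled to the total precursor count, both miR-23 precursors were lower in AGO3, both miR-24 precursors were higher, and the miR-27 precursors differed in sign, except with scaling to all reads. None of the 6 was 2-fold apart, whereas 24.6% of the 411 precursors that reached 100 counts in the libraries together were. Of those 411, 15.8% stood at least 2-fold higher and 8.76% at least 2-fold lower in AGO3. All 6 members passed this minimum.

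For mir-23a the log2 ratio, AGO3 over AGO2, was −0.59 (−0.65 to −0.54), or 1.51-fold lower in AGO3. For mir-23b it was −0.41 (−0.45 to −0.38), or 1.33-fold lower. In both clusters the miR-23 hairpin thus had the lowest ratio. For mir-24-1 the log2 ratio was 0.79 (0.73 to 0.85), or 1.73-fold higher in AGO3, and for mir-24-2 it was 0.56 (0.45 to 0.68), or 1.48-fold higher. In both clusters the miR-24 hairpin had the highest ratio. Between them, mir-27a was at 0.23 (0.21 to 0.24) and mir-27b at −0.31 (−0.32 to −0.30). No interval reached 0.

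Summed over the counterparts, miR-23 was at −0.48 (−0.51 to −0.45) and miR-27 at −0.16 (−0.17 to −0.15), or 0.17 with scaling to all reads. The miR-24 sum was at 0.74 (0.69 to 0.79), or 0.45 with the counts of mir-3074, on the opposite strand of mir-24-1, added. The 6 members had a median of −0.04, with 3 above and 3 below 0. Over all 411 precursors the median was 0.08, with quartiles at −0.52 and 0.70, and 4 of the 6 members lay between these quartiles.

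The scale sets part of this picture. With TMM scaling all ratios shift by −0.16, with median-of-ratios scaling by −0.19, and with scaling to all reads of the library by 0.33. mir-27a, mir-24-1 and mir-24-2 stayed above 0 and mir-23a and mir-23b below 0 under all 3, while mir-27b turned to 0.02 with scaling to all reads. With that scaling mir-24-1 reached 1.12, which is past 2-fold. The differences between members do not depend on the scaling.

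**Figure D2:**
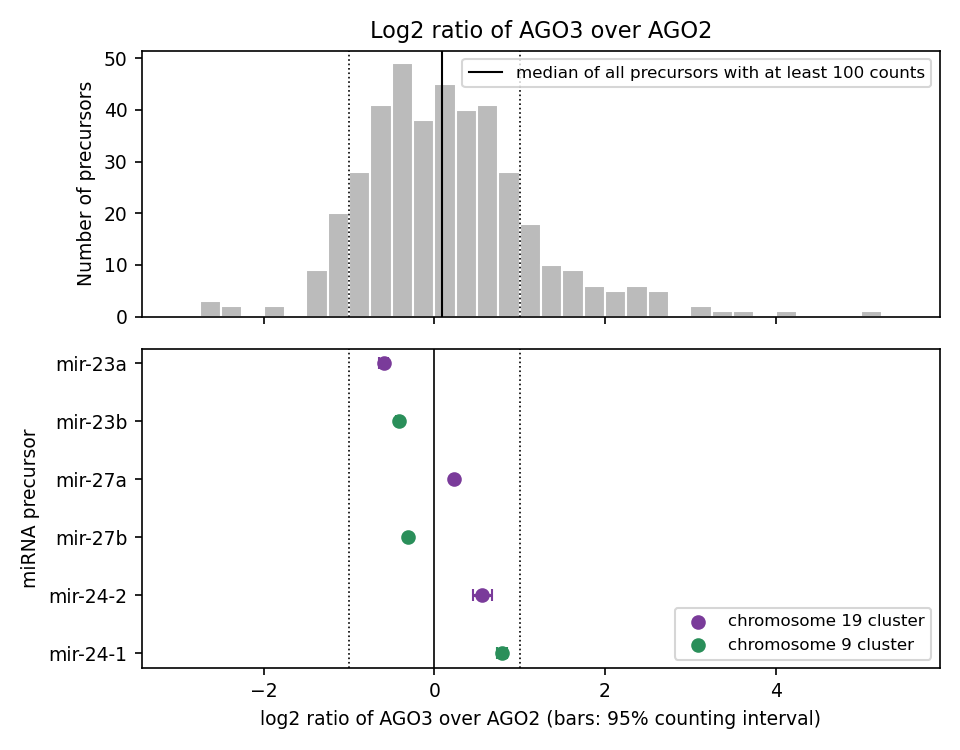
Top, the number of precursors with at least 100 counts by log2 ratio of AGO3 over AGO2; bottom, the ratio of the 6 members with 95% counting intervals, coloured by cluster, with dotted lines at 2-fold. All 6 lie inside 2-fold, miR-23 to the left of 0 and miR-24 to the right, with mir-27a at 0.23 and mir-27b at −0.31 (0.02 with scaling to all reads).

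The second comparison set the clusters against each other. The chromosome 9 cluster gave most of the counts in both libraries, but a smaller part of them in AGO3. It held 74.5% (74.3 to 74.6) of the counts of both clusters in AGO2 and 68.3% (68.1 to 68.6) in AGO3, a share that no scaling of the libraries can change. In AGO2 the clusters had 177197 counts from chromosome 9 and 60779 from chromosome 19, and in AGO3 127748 and 59162. As sums, the chromosome 9 cluster was at −0.28 (−0.29 to −0.27) and the chromosome 19 cluster at 0.15 (0.13 to 0.17), a difference of −0.43. The chromosome 19 sum turned to −0.01 (−0.03 to 0.01) with TMM and −0.04 with median-of-ratios scaling, and the chromosome 9 sum to 0.04 with scaling to all reads.

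The 3 pairs of counterparts did not differ in the same direction. The miR-27 pair, which holds most of the counts, had a smaller chromosome 9 share in AGO3, the miR-23 pair a larger one, and the direction of the miR-24 pair depended on how its opposite-strand partner was counted. mir-27b made up 75.5% (75.3 to 75.7) of the miR-27 counts in AGO2 and 68.1% (67.8 to 68.3) in AGO3. In the miR-23 pair the share of mir-23b was instead higher in AGO3, at 63.7% (63.1 to 64.4) in AGO2 and 66.6% (65.8 to 67.3) in AGO3. In the miR-24 pair the share of mir-24-1 was 76.4% (75.1 to 77.6) in AGO2 and 79.1% (78.1 to 80.1) in AGO3. The counting intervals of the libraries do not overlap in these pairs. They do not cover wrong assignment of reads between counterparts, whose 3p arms share their first 18 bases in the miR-23 and miR-27 pairs. How reads that fit both counterparts were counted was not given, and its effect on these shares was not tested. With the counts of mir-3074, on the opposite strand, added to mir-24-1, the direction of the miR-24 pair reversed, to 86.3% (85.5 to 87.0) and 85.1% (84.4 to 85.8). These intervals overlap, and the addition was chosen after seeing the data. It credits all mir-3074 counts to chromosome 9, although both mir-24 hairpins hold the run with miR-24-3p. Whether those counts belong there was not tested. The difference in log2 ratio, chromosome 9 minus chromosome 19, was −0.53 for miR-27, 0.18 for miR-23 and 0.23 for miR-24, or −0.13 for miR-24 with mir-3074 added.

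**Figure D3:**
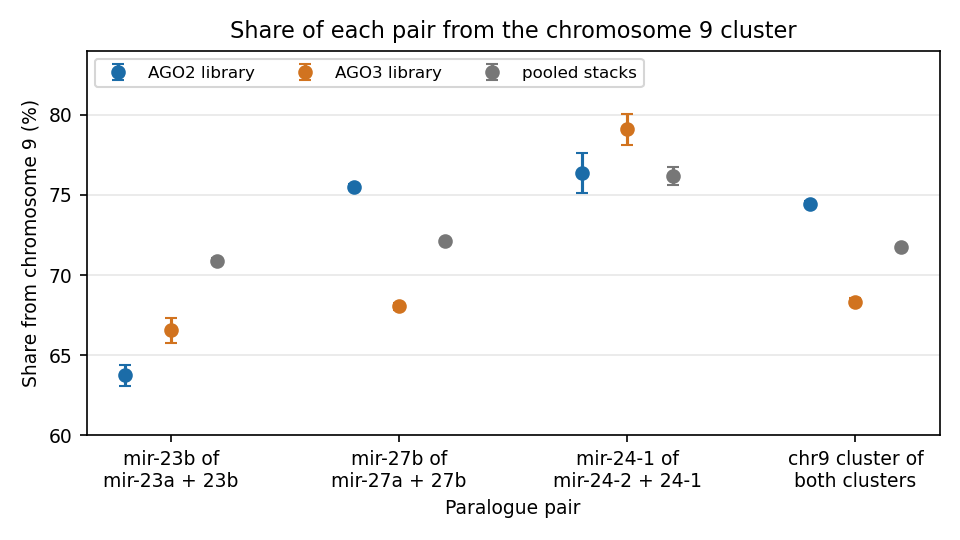
Share of each pair of counterparts, and of both clusters, that came from chromosome 9, in percent on an axis that starts at 60, with 95% counting intervals. Blue is AGO2, orange AGO3 and grey the pooled stacks. The intervals do not cover wrong assignment of reads between counterparts, which was not tested. The miR-27 share is 75.5% in AGO2 and 68.1% in AGO3, while that of miR-23 is higher in AGO3; that of miR-24 is 76.4% and 79.1%, but 86.3% and 85.1% with mir-3074 added to mir-24-1, which is not drawn.

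The makeup of the clusters was alike in that miR-27 dominated. mir-27b took 90.2% (90.1 to 90.3) of the chromosome 9 counts in AGO2 and 88.7% (88.5 to 88.9) in AGO3. mir-27a took 85.3% (85.0 to 85.5) of the chromosome 19 counts in AGO2 and 89.9% (89.6 to 90.1) in AGO3. The clusters differed more in AGO2, where mir-27a had 6.57 times the counts of mir-23a and mir-27b had 11.5 times those of mir-23b. In AGO3 these ratios were 11.6 and 12.4. The share of mir-23a in its cluster was 13.0% (12.7 to 13.2) in AGO2 and 7.74% (7.53 to 7.96) in AGO3, whereas that of mir-23b was 7.82% (7.69 to 7.95) and 7.14% (6.995 to 7.28). mir-24-1 took 1.97% of its cluster in AGO2 and 4.15% in AGO3, and mir-24-2 1.78% and 2.37%. It was not tested whether these counts include the mature arm that both mir-24 hairpins share. The mir-24 shares thus need not give the level of miR-24 in Argonaute.

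The third comparison used the stacks of overlapping reads, which give positions in build hg19 and keep strand but pool libraries that are not named. The list holds 68649476 reads, 6.05 times the reads of both libraries, so it cannot be split into AGO2 and AGO3. The chromosome 9 hairpins lie on the plus strand in an intron of C9orf3, also called AOPEP, which encodes an aminopeptidase. mir-23b had 1 stack at chr9:97847489-97847572 with 216627 reads, mir-27b 1 stack at chr9:97847719-97847809 with 326189 reads, and mir-24-1 1 stack at chr9:97848286-97848334 with 15954 reads.

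The chromosome 19 hairpins lie on the minus strand, and their stacks carry no intron annotation. mir-27a had 1 stack at chr19:13947260-13947322 with 125975 reads and mir-24-2 1 stack at chr19:13947137-13947184 with 4986 reads. mir-23a was the member with 2 stacks, at chr19:13947384-13947433 with 88556 reads and at chr19:13947443-13947466 with 418 reads. No stack named a member together with another precursor. Edits, that is, differences from the reference, came to 0.143 to 0.191 per read in the 7 stacks, against 0.162 over all stacks that name a precursor. The deposited score of a stack, named a total entropy in the file without a formula, was highest among members for mir-27b at 2.27 and mir-23b at 2.14, against a median of 1.10 over 321 precursor stacks with at least 1000 reads.

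In the stacks 71.8% (71.7 to 71.9) of the reads of both clusters came from chromosome 9, a value between those of the libraries. mir-27b gave 72.1% (72.0 to 72.3) of its pair, also between the libraries. mir-24-1 gave 76.2% (75.6 to 76.8) of its pair, below both libraries, though with an interval that overlaps that of AGO2. mir-23b gave 70.9% (70.7 to 71.0) of its pair, above both libraries.

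The balance between families was another one than in the count tables. mir-27b had 1.51 times the stack reads of mir-23b and mir-27a 1.42 times those of mir-23a, where the tables gave 6.57 to 12.4 times. miR-23 took 40.5% of the chromosome 19 and 38.8% of the chromosome 9 stack reads. In rank, mir-27b stood at 38 among 1129 precursors named in stacks, while mir-23b at 57 lay between its table ranks of 54 and 70. The stack reads were 1.19 times the summed table counts for mir-27b and 1.20 times for mir-27a. For mir-23b they were 9.43 times and for mir-23a 7.14 times, for mir-24-1 1.81 and for mir-24-2 2.01. Over 326 precursors past the minimum with stacks of their name alone the median was 6.32, with quartiles at 2.17 and 16.4. The miR-27 and miR-24 members of both clusters thus lay below the lower quartile, and the miR-23 members between the quartiles.

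**Figure D4:**
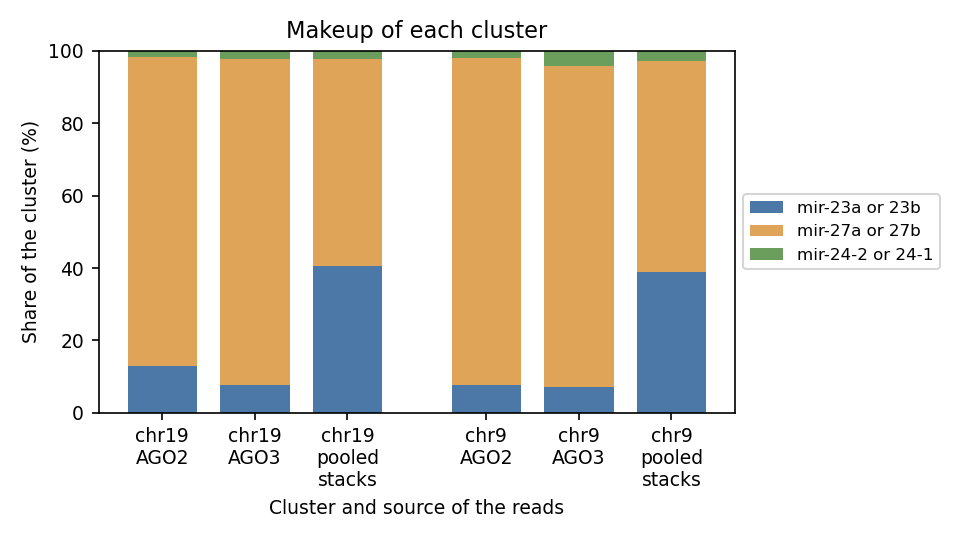
Share of each cluster's reads, in percent, from its miR-23, miR-27 and miR-24 hairpin, in the AGO2 and AGO3 count tables and in the pooled stacks. The miR-27 hairpins take 85.3% to 90.2% in the tables and 57.3% to 58.4% in the stacks, and the miR-23 hairpins 7.14% to 13.0% and 38.8% to 40.5%. Whether the miR-24 shares in the tables include the mature arm that both miR-24 hairpins share was not tested.

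The length of the stacks bears on which arm of miR-24 was seen. From the first base of the 5p arm to the last base of miR-24-3p both mir-24 hairpins span 59 bases, but their stacks are 49 bases long for mir-24-1 and 48 for mir-24-2. Neither stack can hold both arms whole. The stacks of mir-23b, at 84 bases for a span of 61, mir-27b, at 91 for 63, and mir-27a, at 63 for 62, are long enough to hold both. The main stack of mir-23a, at 50 bases for a span of 57, is also too short, and its second stack is 24 bases long. Distances inside the clusters, taken to be the same in both builds, place the mir-24 stacks. On chromosome 9 the mir-24-1 stack ends 615 bases after the start of the mir-27b stack. The end of miR-24-3p in mir-24-1 lies 622 bases after the start of miR-27b-5p. If the mir-27b stack holds its 5p arm whole, at least 7 bases of miR-24-3p lie beyond the mir-24-1 stack. On chromosome 19 the mir-24-2 stack ends 185 bases after the start of the mir-27a stack, while miR-24-3p starts 198 bases after the start of miR-27a-5p. On the same condition the mir-24-2 stack holds no part of miR-24-3p, the arm that the hairpins printed above share. No other stack on the strand of a mir-24 hairpin named it.

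All but 1 of the 502547 stacks carry a mapping label that begins with UNIQ. The treatment of reads that fit several places was not given in the sources used here, for the stacks or for the tables. Whether the mir-24 counts of the tables include miR-24-3p was not tested, since the tables do not name arms. The ratio of mir-24-1 to mir-24-2 was 3.23 in AGO2, 3.78 in AGO3 and 3.20 in the stacks.

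The count of mir-24-1 may also not be its own. The precursor mir-3074 lies on the opposite strand, and all 68 bases of the mir-24-1 hairpin are found in the reverse complement of the 81-base mir-3074 hairpin. Its mature arms are shown with the seed in capitals, because the 5p arm lies opposite miR-24-3p and the 3p arm opposite miR-24-1-5p.
miR-3074-5p: gUUCCUGCugaacugagccag
miR-3074-3p: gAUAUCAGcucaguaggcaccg

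For mir-3074 the counts were 3292 in AGO2 against 2715 in AGO3, with a log2 ratio of −0.09 (−0.16 to −0.01). It made up 48.5% (47.3 to 49.7) of the counts of mir-3074 and mir-24-1 in AGO2 and 33.9% (32.8 to 34.9) in AGO3. In the stacks, which keep strand, it made up 5.72% (5.38 to 6.08), with 968 reads at chr9:97848304-97848329, inside the bounds of the mir-24-1 stack. With the counts of mir-3074 added, mir-24-1 had a log2 ratio of 0.43 (0.38 to 0.48) in place of 0.79. The use of strand in counting was not given in the sources used here.

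One more relative, mir-23c in MAP7D2 on the X chromosome, has the seed of miR-23 but was at the limit of detection. It had 4 counts in AGO2 and 2 in AGO3, at this depth too few for a ratio, and 43 stack reads at chrX:20035219-20035241. These stack reads had 0.674 edits per read, against 0.143 to 0.191 in the 7 stacks of members. Whether they come from mir-23c was not tested.
miR-23c: aUCACAUUgccagugauuaccc
It differs from miR-23b-3p by G14U and A22C, counted from 1 at the 5′ end of miR-23b-3p, and is 22 bases long against 23.

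The last comparison set the spread inside these clusters beside that of other polycistrons, from a list of 32. The range of log2 ratios was 1.20 in the chromosome 9 cluster and 1.16 in the chromosome 19 cluster. Among 27 other polycistrons with at least 2 members past the minimum the median range was 0.86, and 9 were wider than the chromosome 9 cluster and 10 wider than the chromosome 19 cluster. A range grows with the number of members, and 20 of these have only 2. Among the 7 others with at least 3 members the median was 1.497, and 4 were wider than either cluster. The widest was the cluster from mir-106a to mir-363 on the X chromosome at 2.77 and the narrowest mir-15a with mir-16-1 at 0.15. Members on both sides of 0, as in both miR-23/27/24 clusters, were found in 16 of the 27. Among the 7 others with at least 3 members they were found in 6. Without mir-24-1, whose count may not be its own, the range of the chromosome 9 cluster was 0.11, and without mir-24-2 that of the chromosome 19 cluster was 0.82.

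**Figure D5:**
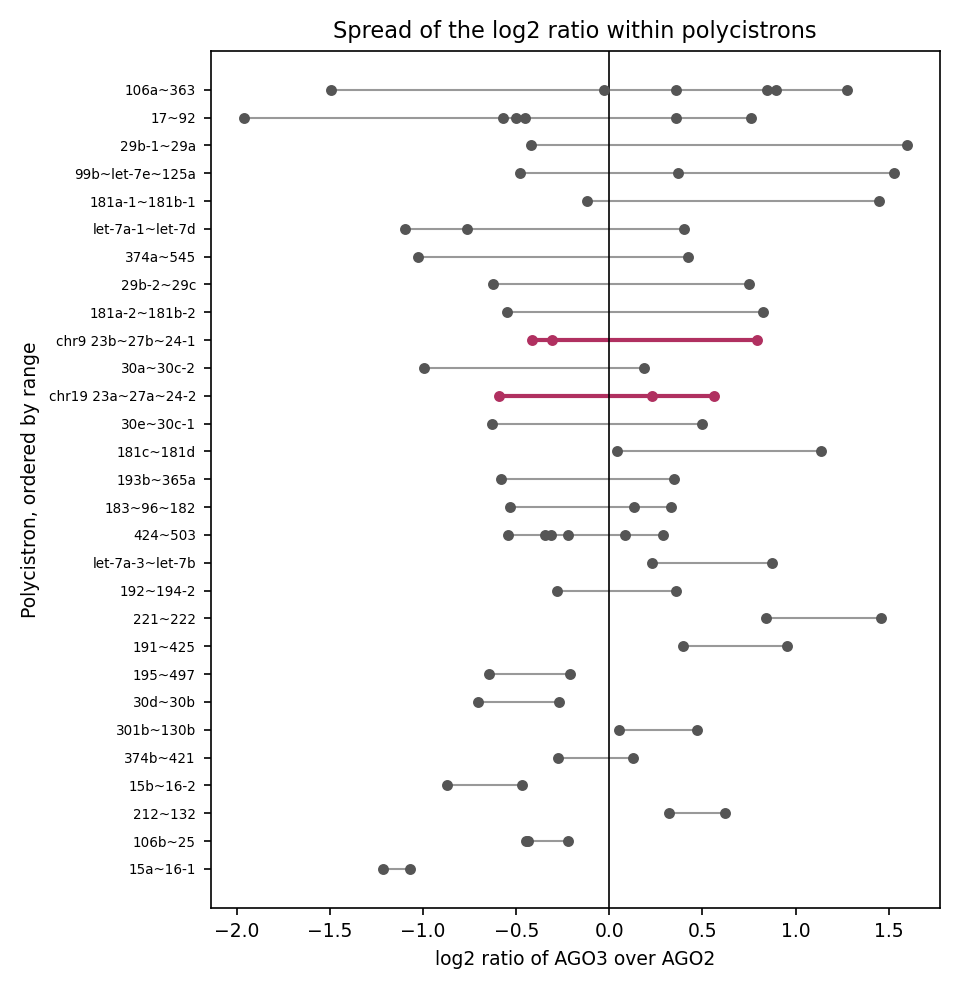
Log2 ratio of AGO3 over AGO2 of each precursor with at least 100 counts in 29 polycistrons, 1 line per polycistron from its lowest to its highest member, ordered by range, with the miR-23/27/24 clusters in red. They span 1.20 and 1.16, within the 0.15 to 2.77 of the others.

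The precursors nearest to each member by level were looked for in the plane of the log2 shares of counts in AGO2 and AGO3, as the distance over these 2 libraries. For no member was it another member. mir-23b lay nearest to mir-26b at a distance of 0.05, mir-23a to mir-30b at 0.10, mir-27a to mir-92a-1 at 0.15, mir-24-1 to mir-185 at 0.16, mir-24-2 to mir-1180 at 0.21 and mir-27b to mir-18a at 0.26. With 2 libraries many precursors lie this near, so the names only describe the level.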

How the data were processed

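The deposited tables hold 1 raw count per precursor and library, with all, mapped and unmapped reads per the file headers. The counts sum to the mapped reads. The submitters' processing notes name Bowtie2 2.1.0 and hg19 but not what each was used for; the miRBase release was not given in the sources used here. The deposited stack list gives a count of reads and an entropy score per stack, pooled over libraries.

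Log2 ratios compare shares of the precursor counts, after a pseudocount of 0.5 in proportion to library size was added, and were read against precursors with at least 100 counts. The computation was tested on simulated data. Members and lists were chosen with earlier results of these data known. Named were all 6 members, mir-23c, mir-3074, the nearest precursor of each member, and the widest and narrowest polycistron. Added later were mir-122, 3 erythroid miRNAs, mir-126, mir-124-3, mir-188 and mir-362. Alternatives were TMM (edgeR 4.0.16), median-of-ratios and all-read scaling, other minimums and pseudocounts, sums without mir-24 or with mir-3074, and other choices of stacks. Tools were R 4.3.3, Python 3.11.15, scipy 1.17.1, numpy 2.4.6, matplotlib 3.10.9 and pandas 2.3.3.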

Additional observations from a re-analysis of the deposited data

Results flagged for a closer look

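Reads on the strand opposite to a member, which no comparison above uses, were found in the pooled stacks above the limit of 3 reads. Opposite mir-23b there were 291 reads, in a stack of 160 reads at chr9:97847505-97847528 and a stack of 131 reads at chr9:97847545-97847588. Opposite mir-27b there were 40 reads, in stacks of 27 reads at chr9:97847742-97847768 and 13 reads at chr9:97847780-97847803. Opposite mir-27a there were 3 reads. None of these stacks names a precursor in its own sense. Together with mir-3074, stacks opposite to members held 1302 reads, 0.167% of all stack reads over the 6 hairpins.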

How the results depend on the processing

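With TMM scaling the log2 ratios were −0.75 for mir-23a, 0.067 for mir-27a, 0.40 for mir-24-2, −0.57 for mir-23b, −0.47 for mir-27b and 0.63 for mir-24-1. The sums were −0.0094 for chromosome 19, −0.44 for chromosome 9, −0.32 for both clusters, −0.64 for miR-23, −0.32 for miR-27 and 0.58 for miR-24. With median-of-ratios scaling the members, in the same order, were at −0.78, 0.038, 0.37, −0.60, −0.50 and 0.60, and the sums at −0.039, −0.47, −0.35, −0.67, −0.35 and 0.55. With scaling to all reads they were at −0.27, 0.55, 0.89, −0.088, 0.020 and 1.12, and the sums at 0.48, 0.044, 0.17, −0.15, 0.17 and 1.07. The signs thus changed for the chromosome 19 sum with median-of-ratios scaling, and for mir-27b and the sums of chromosome 9, both clusters and miR-27 with scaling to all reads. With TMM the chromosome 19 sum was also negative, but its interval (−0.026 to 0.0069) took in both signs. These shifts follow from the scaling factors, which move all ratios alike. With mir-3074 added, mir-24-1 was at 0.43, the miR-24 sum at 0.45, the share of mir-24-1 in its pair at 86.3% in AGO2 and 85.1% in AGO3, the log2 difference of mir-24-1 from mir-24-2 reversed to −0.13, the range of the chromosome 9 cluster at 0.84, and the chromosome 9 share at 74.8% in AGO2 and 68.8% in AGO3. Without the mir-24 copies that share was 67.9% in AGO3, and the ranges were 0.82 on chromosome 19 and 0.11 on chromosome 9. Precursors at least 2-fold apart numbered 54 (24.4% of those compared) with a minimum of 1000 counts and 436 of 1038 (42.0%) with none, against 101 of 411 (24.6%). Of the calls 64.4% were higher in AGO3, but 51.9% with TMM and 50.5% with median-of-ratios scaling. The remaining 28 alternatives, among them a pseudocount of 5 and the choices of stacks, moved no value beyond its counting interval or, for counts of precursors, by over 1.5 times. The choices of stacks could not move a value. No member stack named another precursor, and the smallest held 418 reads, above the minimum of 10. No paired analysis was possible because each group has 1 library and the labels give no replicate numbers.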
